A study of Rattus norvegicus with 8 samples.

Results

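The genes of cholesterol synthesis described here were 8: Hmgcs1, Idi1, Fdps, Fdft1, Sqle, Lss and Cyp51, which encode enzymes of the pathway, and Insig1, which encodes a protein that restrains it. They were found by gene name among the 31099 probe sets of Affymetrix rat expression arrays, and 7 of the 8 had at least 1 probe set, 11 probe sets in all. No probe set was annotated to Hmgcs1, so this gene was not analysed here. The probe sets used were 1368878_at for Idi1, 1367667_at for Fdps, 1367839_at for Fdft1, 1387017_at for Sqle, 1372973_at for Lss, 1367979_s_at for Cyp51 and 1367894_at for Insig1, the brightest of each gene. The 7 genes were among 14217 genes on the arrays and all 7 passed the level filter that left 9258 genes for testing. That filter used the mean over all 8 arrays, not the level in any 1 group.

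The arrays held RNA of epithelial cells loosened from the proximal small intestine of female Wistar rats aged 4 months, with 2 arrays in each of 4 groups. WR rats had no water for 12 h. DSW1200 rats drank deep-sea water adjusted to a hardness of 1200 for 3 days, SeW rats drank water with sodium selenite for 3 days, and TW rats drank tap water for 3 days and served as the control. All groups came from the same strain, with no genetic change named. The sources used here do not say whether the 2 arrays of a group came from separate animals or from pools, so p-values measure only the spread between these arrays, which may be technical.

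Cholesterol is built from acetyl-CoA through mevalonate, isoprenoid units, squalene and lanosterol. Transcription of the enzymes is driven by SREBP-2, which the escort protein SCAP carries to the Golgi for cleavage when membrane sterol is low, while INSIG proteins hold SCAP back when sterol is plentiful. The small intestine is a major site of both cholesterol synthesis and cholesterol absorption. INSIG1 is itself a target of SREBP, so its transcript usually moves with those of the enzymes.

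Values below are normalized signals, that is, the deposited probe set intensities after the arrays were given the same distribution of values, and log2 differences, with the folds taken from them, are between group means of log2 values. Where the 2 arrays of a group lay far apart, as in DSW1200, such a difference departs from the ratio of the group's mean signals. The 2 arrays of a group correlated at 0.946 to 0.976 over tested genes. The deposited medians ran from 4.3 to 11.1 and were highest on the 2 SeW arrays (11.1 and 10.6, against 8.4 and 4.3 in TW). The beta-actin 3'/5' ratio, a sign of RNA quality or of cDNA length, was 13.6 and 10.9 on the SeW arrays and 20.6 to 32.8 on the other arrays. All 12 measured markers of absorptive enterocytes passed the level filter, and their summed signal was 40839 to 42866 in SeW, 31775 to 34035 in WR and 36032 to 36672 in DSW1200, against 37541 to 38150 in TW.

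Promoter sequences are shown because the members moved together from array to array, as described further on, and because Lss, which did so least, can be set beside the others. RefSeq promoter windows (250 bases before to 50 after the start, GRCr8) were matched for 6 of the 8 genes, not for Sqle and Fdft1. They include that of Hmgcs1, which had no probe set and is not printed. Stretches upstream of the start are printed 5′ to 3′ on the gene's strand, and capitals mark CCAAT or its reverse complement ATTGG, the box bound by NF-Y, and GGGCGG or its reverse complement CCGCCC, the box bound by SP1.
Idi1, chr17:66547545-66547600, minus strand: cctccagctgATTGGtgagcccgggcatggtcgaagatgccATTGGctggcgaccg
Fdps, chr2:176804887-176805000, minus strand: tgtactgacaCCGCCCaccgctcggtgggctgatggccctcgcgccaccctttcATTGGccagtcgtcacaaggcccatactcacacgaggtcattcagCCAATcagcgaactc
Lss, chr20:12118298-12118463, minus strand: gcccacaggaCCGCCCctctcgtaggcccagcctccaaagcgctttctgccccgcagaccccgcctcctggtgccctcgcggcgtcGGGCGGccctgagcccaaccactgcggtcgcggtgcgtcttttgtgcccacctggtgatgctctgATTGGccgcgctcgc
Cyp51, chr4:30991556-30991581, plus strand: gcagaaagccCCGCCCcgtctgtgac
Insig1, chr4:8057948-8057985, minus strand: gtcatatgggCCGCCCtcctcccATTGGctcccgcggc

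Over the whole windows, CCAAT was found on either strand in 5 of 6 member promoters, all but that of Cyp51, against 37.5% of 33469 rat promoters. GGGCGG was found in 5 of 6, all but that of Idi1, against 33.1%. Both counts include the window of Hmgcs1, which held both boxes but has no signal here. The letters TCACNCCAC, a form of the sterol response element, were found in 0 of 6 windows, against 1.12% of all promoters. The Lss window held both boxes, like those of Fdps and Insig1. Any link between these letters and the signals was not tested, and Sqle and Fdft1 had no window. A match is a run of letters and not a measured binding site, and the boxes do not overlap each other.

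In the SeW group the means of 6 of the 7 genes, all but Lss, were below those of the TW group, and for these 6 both SeW arrays lay under both TW arrays. The log2 differences of the 7 genes ran from -1.31 for Insig1 to 0.053 for Lss, with a median of -1.04, beside a median of -0.04 over all tested genes. None of the 7 passed an adjusted p of 0.05 (limma, Benjamini-Hochberg over 9258 genes), where 1.91% of all tested genes did. At an unadjusted p under 0.05 there were 5 of 7, against 19.6% of all tested genes, and 4 of the 7 differed at least 2-fold, against 6.8%. The count without overlap should be read beside the 29.1% of all tested genes that were lower in SeW without overlap.

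Among the measured members, those of the isoprenoid steps act first in the pathway. Idi1, the isomerase that makes dimethylallyl diphosphate, had signals of 156 and 250 on the SeW arrays, 408 and 365 on the WR arrays, 251 and 795 on the DSW1200 arrays and 429 and 346 on the TW arrays. SeW arrays were the lowest for this gene, and DSW1200 held both a value close to them and the highest value of all. Its log2 difference in SeW against TW was -0.96 (SE 0.44, adjusted p = 0.26).

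Fdps joins isoprenoid units into farnesyl diphosphate, from which sterols and prenyl groups are made. Its signals were 361 and 490 in SeW, 739 and 430 in WR, 388 and 856 in DSW1200, against 784 and 789 in TW. The TW arrays differed by under 1% of their mean, while the WR and DSW1200 arrays each spanned much of the range. SeW was 1.87-fold lower than TW (log2 difference -0.90, SE 0.35, adjusted p = 0.198).

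Fdft1, squalene synthase, commits farnesyl diphosphate to sterols. It gave 106 and 107 in SeW, 184 and 139 in WR, 132 and 346 in DSW1200, against 244 and 245 in TW. Both the SeW and the TW arrays were close to each other and the groups did not overlap, with SeW 2.30-fold lower (log2 difference -1.20, SE 0.36, adjusted p = 0.114). Sqle, squalene epoxidase, the oxygen-requiring step that follows, gave 77.9 and 113 in SeW, 149 and 127 in WR, 93.4 and 295 in DSW1200, against 160 and 232 in TW. SeW lay lowest on average and 2.05-fold under TW, but SeW overlapped DSW1200 (log2 difference from TW -1.04, SE 0.44, adjusted p = 0.237).

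Lss, lanosterol synthase, closes the sterol rings and was the exception on the probe set used. Its signals were 46.5 and 49.0 in SeW, 41.0 and 50.7 in WR, 25.6 and 67.7 in DSW1200, against 48.0 and 44.1 in TW. The 4 group means lay between 45.8 and 47.8 and the groups overlapped. The log2 difference in SeW against TW was 0.053, with a 95% interval of -0.80 to 0.90, which stops short of the differences of the other 6 genes. With the actin ratio as covariate the Lss difference turned to -0.89 (SE 0.95), and its second, dim probe set, given further on, was near the floor in SeW and above it in TW. The difference between Lss and the others was not tested.

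Cyp51, lanosterol 14-alpha demethylase, acts after Lss. It gave 653 and 721 in SeW, 1664 and 1127 in WR, 859 and 2057 in DSW1200, against 1484 and 1505 in TW. The SeW arrays were below all 6 others, and SeW was 2.18-fold under TW (log2 difference -1.12, SE 0.34, adjusted p = 0.114). Insig1, the SREBP target that retains SCAP, gave 310 and 531 in SeW, 820 and 427 in WR, 510 and 1445 in DSW1200, against 922 and 1100 in TW. Its log2 difference in SeW against TW was -1.31 (SE 0.46, adjusted p = 0.162), and in this gene a SeW array lay above a WR and a DSW1200 array.

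**Figure D1:**
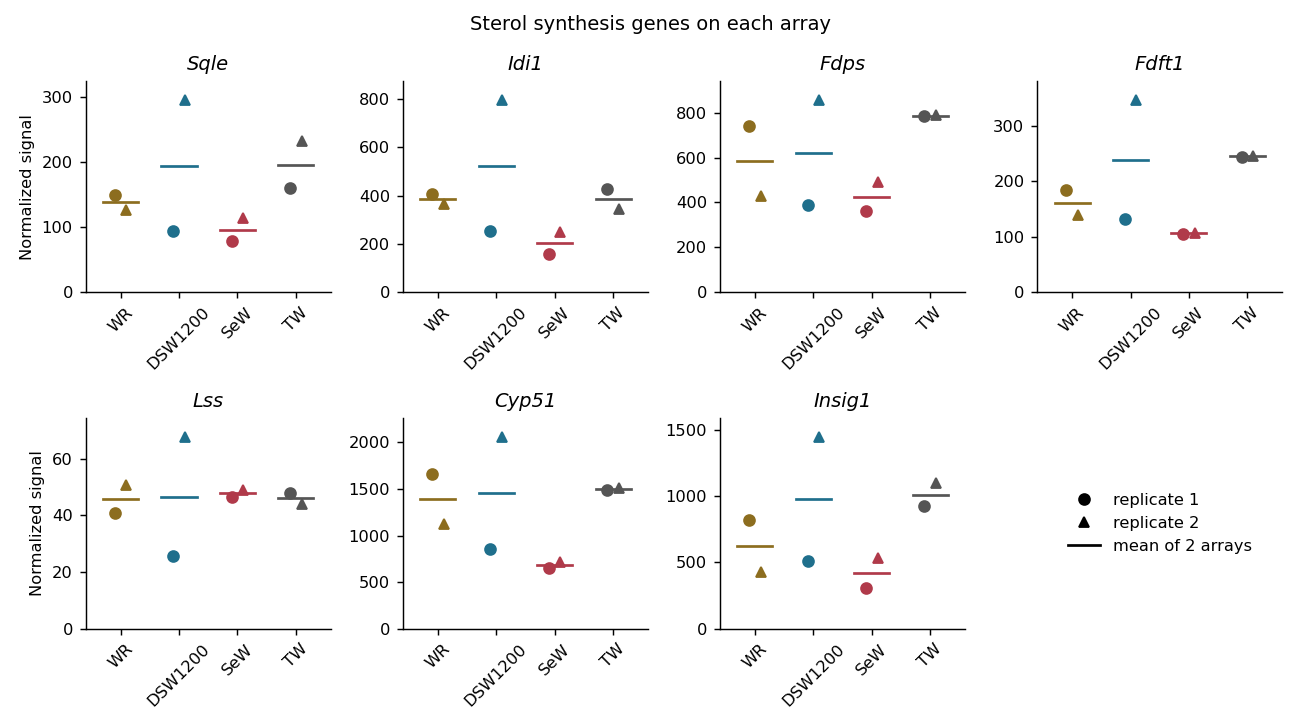
Normalized signal (y axis, linear, starting at 0) of the 7 measured genes on each of the 8 arrays, by group (x axis). Circles are replicate 1, triangles replicate 2 and lines the mean of 2 arrays. SeW points lie under TW points in every gene but Lss, and the DSW1200 triangle is the highest point in all 7 panels.

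The DSW1200 arrays widened the spread used in the shared fit, and the calls for SeW turned on them. Without DSW1200 replicate 1, Fdft1 (adjusted p = 0.0247) and Cyp51 (0.0308) passed in SeW against TW, as they did without replicate 2 (0.0255 and 0.033) and without the whole DSW1200 group (0.0246 and 0.0309, an alternative chosen after seeing the data). These fits called 2.19%, 2.18% and 2.29% of all tested genes. The differences themselves did not change, and the other 5 genes did not pass in these fits. With only the 4 SeW and TW arrays, Cyp51 alone passed (adjusted p = 0.0482), in a fit that called 0.281% of genes. Several markers moved with SeW as well: the 6 tested T and intraepithelial lymphocyte markers all had lower means than in TW, and the summed signal of the 9 measured was 201 to 223 in SeW and 247 to 377 in TW. Of 7 tested crypt and proliferation markers, 6 had higher means in SeW (median log2 difference 0.89), and the summed signal of the 10 measured was 557 to 725 in SeW and 445 to 601 in TW. All 4 tested smooth muscle markers had higher means (median 0.63) and all 3 endothelial markers lower means (median -0.28), while 11 of 12 enterocyte markers were higher by mean (median 0.20). Lower means were also found for 3 of 4 tested pancreatic acinar markers (median -0.98) and 5 of 7 enteroendocrine markers (median -0.33). None of the markers in these lists passed in SeW against TW. The part of these cells and of the actin ratio in the SeW differences was not tested. In such bulk RNA, fewer cells of a type and less RNA per cell cannot be told apart.

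The SeW differences were relative to the other genes on each array. On the values as deposited, where SeW arrays were brighter, the median of all tested genes was 0.92 higher in SeW than in TW on the log2 scale and the median of the 7 genes was -0.08, so they were lower than other genes but 1 of 7, not 6, was lower without overlap. With arrays scaled to the same median these medians were 0.07 over all genes and -0.93 over the 7, and 6 were lower without overlap. The 29.1% of all tested genes given above holds for the quantile normalized values. No such share was computed on either of these scalings, so the counts without overlap have no reference here.

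In SeW against TW, the second probe sets of 3 genes gave smaller differences of the same sign. Fdft1 had 32.3 and 44.6 in SeW against 87.4 and 70.6 in TW (log2 difference -1.05, SE 0.32), Cyp51 had 71.3 and 93.5 against 165 and 124 (-0.81, SE 0.36) and Idi1 had 92.1 and 116 against 149 and 162 (-0.59, SE 0.51). In none of these 3 did SeW and TW overlap. The probe set used for Cyp51 carries the suffix that Affymetrix gives to probes shared by similar transcripts, and its second probe set does not. The second Lss probe set was dim and under the level filter, with 1.1 and 0.79 in SeW, 1.1 and 0.86 in WR, 5.7 and 10.1 in DSW1200, against 8.3 and 29.9 in TW. Values under 1 are below the floor and have no order. The Lss probe sets differed in pattern, and averaging them turned the Lss difference in SeW against TW negative, by a size that depends on the floor and is not a measured difference.

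**Figure D2:**
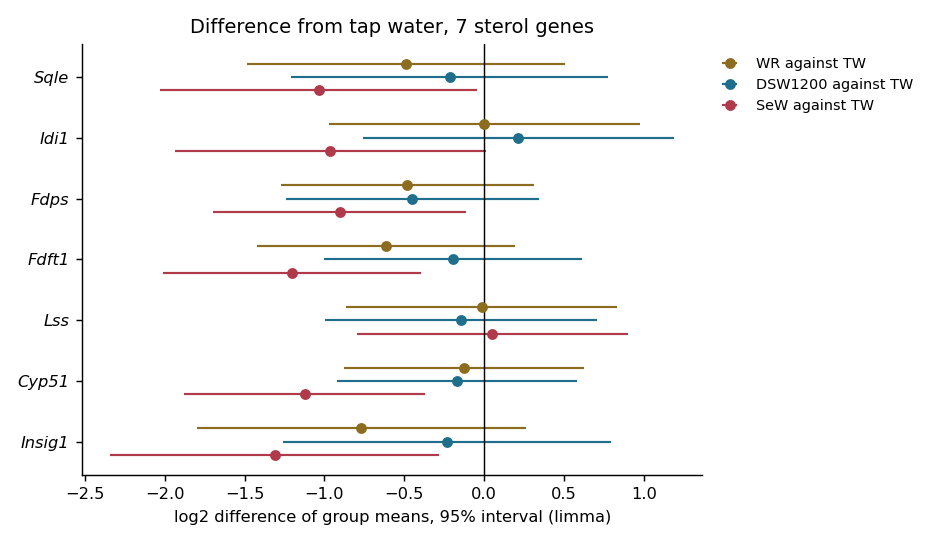
Log2 difference of each group mean from TW (x axis) for the 7 genes (y axis), with points for WR, DSW1200 and SeW from top to bottom within a gene and bars for the 95% interval of the limma fit. SeW points lie between -1.31 and -0.90 for every gene but Lss at 0.053, while WR points lie between -0.77 and 0.0023 and DSW1200 points between -0.45 and 0.21.

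Set against WR, SeW had lower means for the same 6 genes, with a median log2 difference of -0.55 and all-gene median of -0.04. Sqle, Idi1, Fdft1 and Cyp51 did not overlap between the 2 groups, beside 30% of all tested genes lower without overlap. None of the 7 passed the adjusted threshold, where 1.23% of tested genes did. Cyp51 came closest, at -0.997 (SE 0.34, adjusted p = 0.178). At an unadjusted p under 0.05 there was 1 of 7, against 16.5% of all tested genes. None of the 7 differed at least 2-fold, against 5.07% of genes. With only the 4 arrays of this comparison, Idi1 and Cyp51 passed (adjusted p = 0.0379 and 0.022), in a fit that called 4.82% of all tested genes. Set against DSW1200, the median was -0.95, and Idi1, Fdft1 and Cyp51 were the 3 without overlap, beside 29.5% of tested genes. None of the 7 passed, where 2.72% of genes did, and 3 differed at least 2-fold, against 6.2% of genes. Without DSW1200 replicate 1 these 3 passed (adjusted p = 0.027, 0.0252 and 0.0277), in a fit that called 0.637% of genes. Without DSW1200 replicate 2 the differences of Sqle (0.0093) and Fdps (0.11) turned positive. The comparisons of SeW share its 2 arrays, so they are not separate evidence.

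In the WR group 6 of 7 means were under those of TW, Idi1 being level, with a median log2 difference of -0.48. The 4 genes without overlap were Sqle, Fdps, Fdft1 and Insig1, beside 21.3% of all tested genes. Insig1 had the lowest value, -0.77 (SE 0.46, adjusted p = 0.59), followed by Fdft1 at -0.61 (SE 0.36, adjusted p = 0.586). None of the 7 passed in a comparison that called 0.0108% of genes, and none of the 7 had an unadjusted p under 0.05, against 9.7% of all genes. The WR arrays themselves differed in level: replicate 2 was the lower array for 6 of the 7, by 1.92-fold for Insig1 and 1.72-fold for Fdps. Without WR replicate 2 the median difference from TW was -0.17, and without WR replicate 1 it was -0.61. Markers of other cells moved with WR too. All 8 fibroblast and matrix markers had higher means in WR than in TW (median 0.63), as did 6 of 7 crypt and proliferation markers (0.90), 8 of 10 myeloid markers (0.64) and all 4 pancreatic acinar markers (0.87), and 11 of 12 enterocyte markers had lower means (-0.23). The summed signals were 399 to 473 in WR and 204 to 389 in TW for the fibroblast list, 554 to 709 and 445 to 601 for the crypt list, 4077 to 6102 and 4580 to 4734 for the myeloid list, and 93.3 to 472 and 46.6 to 143 for the acinar list. Their part in the WR differences was not tested.

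The DSW1200 group gave no direction, because its 2 arrays lay on opposite sides of TW. For each of the 7 genes replicate 1 was below both TW arrays and replicate 2 above both. Its group means were within 1.37-fold of TW for all 7 genes, and the median log2 difference was -0.19. None of the 7 was lower or higher without overlap, beside 19.2% of tested genes lower without overlap, none passed the adjusted threshold, where 0% of genes did, and none had an unadjusted p under 0.05, against 7.92% of all genes. Against WR the median was 0.21, again with none past the threshold (0% of genes) and none lower without overlap (18% of genes). Without DSW1200 replicate 1 the median difference from TW was 0.52, and without replicate 2 it was -0.89.

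The gap between the DSW1200 arrays, 1.14 to 1.66 on the log2 scale, was as wide as the differences between groups. Replicate 2 was the highest of all 8 arrays for each of the 7 genes, and it exceeded replicate 1 by 3.16-fold for Sqle and for Idi1, 2.84-fold for Insig1, 2.64-fold for Lss, 2.62-fold for Fdft1, 2.39-fold for Cyp51 and 2.20-fold for Fdps. Over all tested genes the median log2 gap between these arrays was 0.03, and from 2.81% to 6.21% of genes had a gap as large as those of the 7. Replicate 1 was the lowest array for Lss, and SeW replicate 1 was the lowest for the other 6. In this pattern Lss moved with the others, although it did not in SeW. The Paneth cell marker sum was 2114 on DSW1200 replicate 1 and 614 on replicate 2, the pancreatic acinar sum was 72.3 and 153, the fibroblast sum was 260.4 and 490 and the myeloid sum was 3244 and 5435. The other 10 marker sums differed by at most 1.38-fold, the enterocyte sum being 36032 and 36672, and the actin 3'/5' ratio was 32.8 and 27.1. The gap in the Paneth sum was that of Reg3g, which averaged 936 ± 1042 in DSW1200 (SD, n = 2). Lyz2 averaged 427 ± 18.2 there, and Defa5, Mmp7 and Pla2g2a were at the floor. The part of any of these in the gap was not tested.

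**Figure D3:**
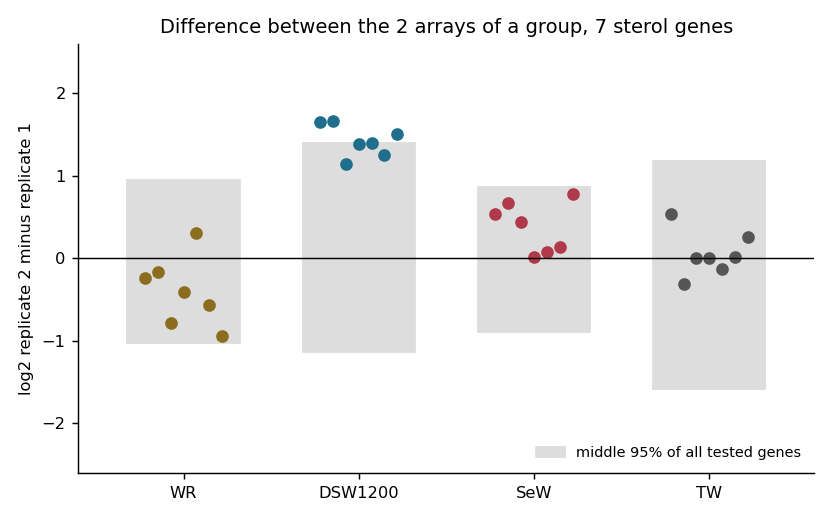
Log2 difference between replicate 2 and replicate 1 (y axis) in each group (x axis) for the 7 genes (points) and the middle 95% of all tested genes (grey). DSW1200 points lie between 1.14 and 1.66, on both sides of the upper edge of the grey range (1.40), while points of the other groups lie inside theirs.

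Across the 8 arrays the genes kept together. Their mean centred log2 level was -0.75 and -0.37 on the SeW arrays, 0.21 and -0.19 on the WR arrays, -0.52 and 0.91 on the DSW1200 arrays and 0.34 and 0.39 on the TW arrays. All 21 pairs of genes correlated positively, with r from 0.36 to 0.95 and a median of 0.89, and the lowest values were those with Lss. Over all pairs of the 9258 tested genes the median r was 0.0019, and 0.357% of pairs reached the median of the 7. These are descriptions over 8 arrays that share groups and brightness. By mean signal, Sqle, Fdps, Fdft1, Cyp51 and Insig1 had the order TW, DSW1200, WR, SeW, and Idi1 had DSW1200, TW, WR, SeW. By mean log2 value the order of Cyp51 was TW, WR, DSW1200, SeW and that of Idi1 DSW1200, WR, TW, SeW, and the other 4 kept theirs. By mean signal, the ranges of neighbours in that order overlapped except between WR and SeW for Sqle, Idi1, Fdft1 and Cyp51. An F test over the 3 groups against TW called none of the 7, where it called 0.616% of genes, and the smallest unadjusted values were 0.0273 for Cyp51 (adjusted p = 0.231) and 0.0339 for Fdft1 (adjusted p = 0.249). Without DSW1200 replicate 1 it called these 2 genes (adjusted p = 0.0479 and 0.0436), and 0.843% of all tested genes.

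The genes whose levels followed this mean profile most closely among the other tested genes were Tpm4, a tropomyosin (r = 0.975), Dlc1, a GTPase-activating protein (0.971), Bola2, an iron-sulfur protein partner (0.961), Tent4b, a poly(A) polymerase (0.959), and Acly, ATP-citrate lyase (0.957), each over 8 arrays. Of these, Acly makes the acetyl-CoA that feeds both sterol and fatty acid synthesis. It gave 96.9 and 92.3 in SeW, 136 and 112 in WR, 97.7 and 191 in DSW1200, against 156 and 135 in TW. As in the members, DSW1200 replicate 2 was its highest array.

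Of 15 other enzymes of the pathway, 13 were tested, and the others were not analysed here. In SeW against TW, 11 of the 13 had a lower mean and 1, Pmvk, passed the test, with a median log2 difference of -0.47. In DSW1200 against TW 9 of the 13 had a lower mean (median -0.16), and in WR 7 did (-0.08). Pmvk, phosphomevalonate kinase, which acts between mevalonate and the isoprenoids, had 57.2 and 56.7 in SeW, 165 and 140 in WR, 159 and 185 in DSW1200, against 180 and 144 in TW. It fell in SeW to a level below all 6 other arrays, 2.82-fold under TW (log2 difference -1.50, SE 0.19, adjusted p = 0.0123), and it also passed against DSW1200 (-1.59, adjusted p = 0.00736) and WR (-1.42, adjusted p = 0.0194). Its calls were lost without either SeW array, with adjusted p of 0.0805 and 0.107 against TW. Its DSW1200 arrays lay near each other, which those of the 7 did not.

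Mvd, mevalonate diphosphate decarboxylase, followed at 25.6 and 41.2 in SeW, against 80.1 and 79.2 in TW (log2 difference -1.29, SE 0.33, adjusted p = 0.0779). Tm7sf2, a sterol reductase of the late pathway, gave 253 and 250.4 in SeW and 254 and 337 in TW (-0.22, SE 0.19, adjusted p = 0.573). Its means in WR (216) and DSW1200 (219) were lower than in SeW. Nsdhl, which removes methyl groups from sterols, gave 112 and 124 in SeW and 161 and 161 in TW (-0.44, SE 0.20, adjusted p = 0.25). Sc5d, a late desaturase, went the other way by mean, 516 ± 21.3 in SeW and 360.4 ± 12.5 in TW (SD, n = 2 each; 0.52, SE 0.17, adjusted p = 0.138). Its means were also above TW in WR (495) and DSW1200 (554). Dhcr7, the last reductase on the route through 7-dehydrocholesterol, averaged 239 ± 11.5 in SeW and 351 ± 4.38 in TW (-0.55, SE 0.28, adjusted p = 0.312). The Dhcr7 means were also below TW in WR (233) and DSW1200 (256). Among the 11 tested enzymes of the non-sterol branches, which use the same isoprenoids for prenylation, dolichol and ubiquinone, none passed, and the median was -0.12. Their smallest F test values were those of Fntb, the beta subunit of farnesyltransferase, which averaged 21.6 ± 15.7 in SeW and 74.3 ± 48.9 in TW (-1.83, SE 0.86, adjusted p = 0.277), and Ggps1, geranylgeranyl diphosphate synthase, which averaged 15.2 ± 0.11 in SeW and 20.8 ± 5.90 in TW (-0.42, SE 0.31, adjusted p = 0.492). Dhdds and Nus1, the subunits of the enzyme that makes dolichol chains, differed in sign, at -0.45 (SE 0.33, adjusted p = 0.498) and 0.50 (SE 0.20, adjusted p = 0.214).

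**Figure D4:**
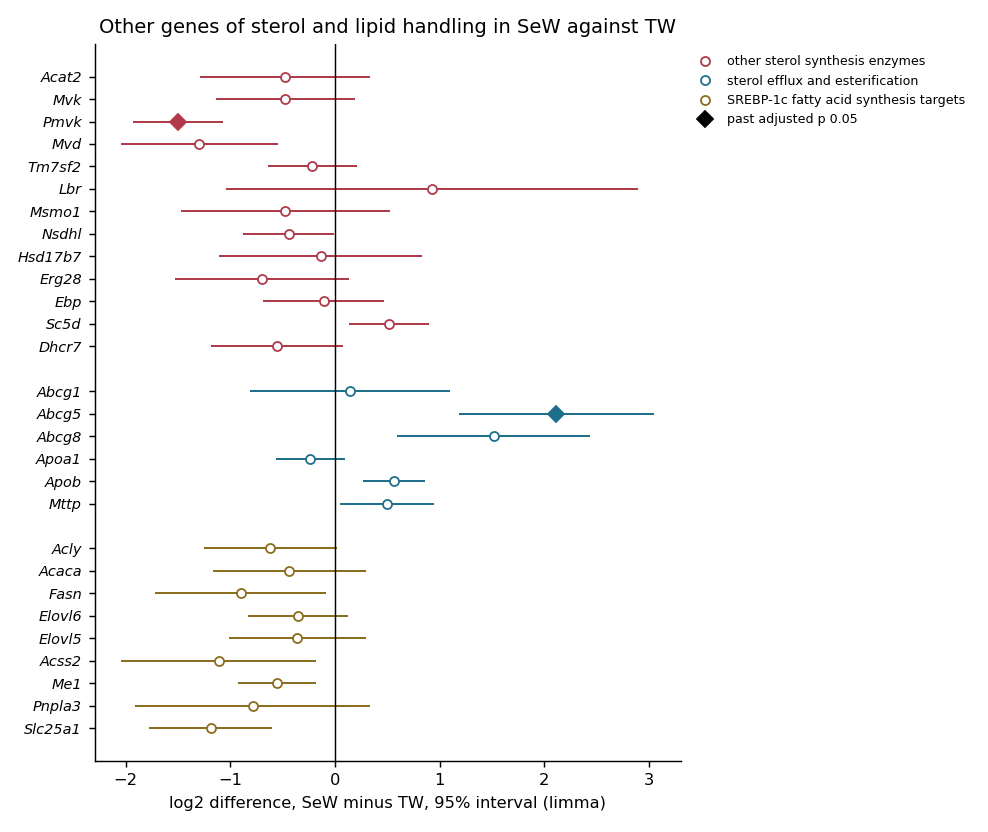
Log2 difference of SeW minus TW (x axis) with the 95% interval of the limma fit for other sterol synthesis enzymes, genes of sterol efflux and esterification, and SREBP-1c targets of fatty acid synthesis (y axis). Filled diamonds passed adjusted p 0.05 and open circles did not. Pmvk at -1.50 and Abcg5 at 2.12 are the diamonds, and all 9 tested SREBP-1c targets lie left of 0.

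The regulators of the pathway were less uniform. Of 12 tested genes of sterol sensing and SREBP processing, none passed in SeW against TW and 1 did against DSW1200, and the median in SeW against TW was -0.04. Srebf2, the gene of SREBP-2, gave 96.1 and 97.3 in SeW, 115 and 96.8 in WR, 111 and 131 in DSW1200, against 142 and 144 in TW. All arrays of the other groups lay below both TW arrays for this gene, and SeW against TW was -0.57 (SE 0.18, adjusted p = 0.131). Srebf1 gave 36.7 and 57.7 in SeW, 42.0 and 38.0 in WR, 43.8 and 46.2 in DSW1200, against 58.2 and 62.8 in TW (-0.39, SE 0.25, adjusted p = 0.415 in SeW against TW). Mbtps2, the site-2 protease that releases SREBP from the Golgi membrane, fell in SeW against DSW1200, with 64.3 and 69.9 against 121 and 144 (-0.97, SE 0.20, adjusted p = 0.037). This call was lost in several fits with 1 array fewer, with adjusted p up to 0.204. Mbtps1, the site-1 protease that makes the first cut, averaged 77.0 ± 6.47 in SeW and 49.0 ± 9.99 in TW (0.67, SE 0.22, adjusted p = 0.138). Insig2, the paralogue of Insig1, averaged 168 ± 16.9 in SeW and 124 ± 6.07 in TW (0.43, SE 0.26, adjusted p = 0.386).

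Of 6 tested genes of sterol efflux and lipoprotein export, 5 were higher by mean in SeW against TW and 1, Abcg5, passed, with a median log2 difference of 0.53. Abcg5 encodes a half-transporter that, paired with the product of Abcg8, returns sterols to the gut lumen. Abcg5 gave 73.4 and 130 in SeW, 35.7 and 25.2 in WR, 31.0 and 13.9 in DSW1200, against 26.8 and 19.0 in TW. It rose in SeW by 4.33-fold over TW (log2 difference 2.12, SE 0.42, adjusted p = 0.0397) and also passed against DSW1200 (2.23, adjusted p = 0.0318). The call against TW was lost without either SeW array, with adjusted p of 0.102 and 0.272, without TW replicate 2 (0.123) and without either WR array (0.0716 and 0.0717). The call against DSW1200 was lost without either SeW array (0.0816 and 0.234), without DSW1200 replicate 2 (0.108) and without either WR array (0.0626 in both). Abcg8 gave 32.6 and 55.1 in SeW, 20.0 and 14.0 in WR, 11.1 and 13.6 in DSW1200, against 10.8 and 20.3 in TW, where SeW did not overlap any other group (1.52 against TW, SE 0.41, adjusted p = 0.0855). Nr1h3, the gene of the oxysterol receptor LXR-alpha that induces both transporters, averaged 257 ± 23.4 in SeW and 478 ± 67.6 in TW (-0.89, SE 0.24, adjusted p = 0.0833).

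Of the other 4 tested genes of efflux and lipoprotein export none passed in SeW against TW. Apob, the structural protein of chylomicrons, averaged 6115 ± 87.0 in SeW and 4149.8 ± 554 in TW (0.57, SE 0.13, adjusted p = 0.0598). Mttp, which loads lipid onto it, averaged 3637 ± 171 in SeW and 2655 ± 911 in TW (0.50, SE 0.20, adjusted p = 0.206). Apoa1, the main protein of HDL, was the 1 gene with a lower mean, 5403 ± 368 in SeW and 6413 ± 1211 in TW (-0.24, SE 0.15, adjusted p = 0.409), and Abcg1, which exports cholesterol to HDL, gave 41.9 and 29.2 in SeW and 48.9 and 20.6 in TW, with overlap (0.14, SE 0.43, adjusted p = 0.888). Of 12 genes of uptake and intracellular transfer, 7 were tested and none passed, and Npc1l1 was not analysed here. Npc2, which hands cholesterol out of lysosomes, averaged 317 ± 9.63 in SeW and 575 ± 13.0 in TW (-0.86, SE 0.21, adjusted p = 0.0716). Mylip, a ubiquitin ligase, averaged 35.3 ± 5.27 in SeW and 18.7 ± 6.28 in TW (0.95, SE 0.37, adjusted p = 0.195). Stard4, a cytosolic sterol carrier, averaged 283 ± 73.7 in SeW and 223 ± 8.13 in TW (0.32, SE 0.22, adjusted p = 0.453), and the endocytic receptor gene Lrp1 averaged 62.1 ± 5.96 in SeW and 62.6 ± 1.18 in TW (-0.015, SE 0.23, adjusted p = 0.979).

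Fatty acid synthesis genes driven by SREBP-1c showed the lower SeW means seen in the sterol enzymes. All 9 tested genes had a lower mean in SeW than in TW, with a median log2 difference of -0.62 beside -0.04 over all genes, and none passed. This was not confined to SeW. In WR against TW 8 of the 9 had a lower mean (median -0.33), and in DSW1200 against TW 6 did (-0.17). Slc25a1, the mitochondrial citrate carrier, averaged 140 ± 6.78 in SeW and 319 ± 4.96 in TW (-1.19, SE 0.26, adjusted p = 0.0535). Acss2, which makes acetyl-CoA from acetate, averaged 144 ± 9.92 in SeW and 312 ± 2.57 in TW (-1.11, SE 0.42, adjusted p = 0.183). Fasn, fatty acid synthase, averaged 65.5 ± 11.5 in SeW and 126 ± 46.3 in TW (-0.90, SE 0.37, adjusted p = 0.212), and Me1, malic enzyme, averaged 1202 ± 105 in SeW and 1769 ± 161 in TW (-0.56, SE 0.17, adjusted p = 0.114). Elovl6, a fatty acid elongase, averaged 481 ± 21.8 in SeW and 629 ± 187 in TW (-0.35, SE 0.21, adjusted p = 0.392). Its means in WR (389) and DSW1200 (426) were lower than in SeW. Pnpla3, a lipid hydrolase gene, was dim, at 5.49 and 10.99 in SeW, 12.0 and 5.6 in WR, 24.2 and 25.3 in DSW1200, against 13.3 and 13.5 in TW (-0.79, SE 0.50, adjusted p = 0.422 in SeW against TW). Another 5 listed genes, among them Scd and Fads1, were under the level filter and were not tested.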

How the data were processed

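The deposited values were linear MAS5 signal intensities, 1 for each probe set and array, made by the authors (MAS5 version not given in the sources used here). The study's methods name quantile normalization, but deposited array medians differed, so arrays were quantile normalized here over all probe sets. Signals below a floor of 1 were raised to it before log2 values were taken. Probe sets were named from the platform annotation, with symbols updated through Entrez number or accession, and 436 with several genes were left out. Each gene was represented by its brightest probe set (mean log2 over arrays), and those brighter than the median probe set (signal 6.69) were tested. limma 3.58.1 in R 4.3.3 fitted 1 model with 4 groups to all 8 arrays (4 residual degrees of freedom, intensity trend), with Benjamini-Hochberg adjustment over 9258 genes and a threshold of 0.05. The median SE of a difference was 0.264. A permutation test of 2 arrays against 2 cannot go below p = 0.333, so none was used. The fit was tested on simulated data. All 8 arrays and columns were used.

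The members and gene lists were chosen with earlier results of these data known. Genes named were all members, every gene of the other sterol lists past the threshold in any comparison, up to 4 more per list by smallest F test p, Srebf1 and Srebf2, and the 5 most alike in profile. Dhcr7, Fasn, Acss2, Abcg1, Scd and Fads1 fall outside this rule and were chosen after their values were seen. Promoters came from RefSeq GRCr8. Alternatives were the deposited values, median scaling, an offset of 32 before log2, no filter and a stricter filter (signal 36.2), the mean of probe sets, all probe sets, no trend, only the 4 arrays compared, a replicate block, the actin ratio as covariate, each array left out, and a 2-fold criterion without a test. Leaving out the DSW1200 group was added after seeing the data.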

Additional observations from a re-analysis of the deposited data

How the results depend on the processing

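The count of members past the threshold was 0 of 7 in each of the 6 comparisons and in the F test. With single arrays left out it ran from 0 to 2 in SeW against TW, 0 to 3 in SeW against DSW1200 and 0 to 2 in the F test, the higher counts coming without a DSW1200 array, and it stayed at 0 in the other 4 comparisons. It was 2 in SeW against TW without the DSW1200 group, and with only the 4 arrays compared it was 1 in SeW against TW and 2 in SeW against WR. By a 2-fold criterion without a test it was 4 in SeW against TW, where 6.8% of all tested genes passed, and 3 in SeW against DSW1200, where 6.2% did. The other alternatives left these counts at 0. With the replicate block it was 0 in every comparison and in the F test. Same-numbered arrays did not deviate together (r from -0.065 to 0.040 over tested genes), which does not show whether they were handled as pairs. Under that block Abcg5 in SeW against TW had an adjusted p of 0.0518 and Mbtps2 in SeW against DSW1200 0.0566. The block changed no other call of a named gene.

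On the values as deposited, where the SeW arrays were brighter, differences turned positive for Fdps in SeW against TW (0.049), for Sqle (0.072), Fdps (0.24), Fdft1 (0.026) and Insig1 (0.12) in SeW against WR, and for Sqle (0.086) and Fdps (0.43) in SeW against DSW1200. Without DSW1200 replicate 2, Sqle (0.0093) and Fdps (0.11) turned positive against DSW1200. The Lss difference turned negative in SeW against TW with the mean of its probe sets (-1.94, which depends on the floor because the second probe set was near it in SeW), with the actin ratio as covariate (-0.89) and without TW replicate 2 (-0.0092). Leaving out single arrays, its range was -0.086 to 0.22 in SeW against WR and -0.50 to 0.90 in SeW against DSW1200, and that of Sqle and Fdps against DSW1200 was -1.65 to 0.0093 and -1.03 to 0.11. The Lss difference also turned negative in SeW against WR with the covariate (-0.92) and without WR replicate 1, and in SeW against DSW1200 with the mean of probe sets (-1.33), the covariate (-1.20) and without DSW1200 replicate 1. With the covariate the other 6 genes stayed lower in SeW in each of its comparisons. The median difference of the 7 genes moved with it in most comparisons by more than the SD of their mean level between arrays of a group. The sizes of these medians are not given here.

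With the actin ratio as covariate, no call of Pmvk, Abcg5 or Mbtps2 held (adjusted p from 0.507 to 0.979), and without the intensity trend none held (0.0755 to 0.16). Of these 6 calls 5 were lost with no filter, 4 on the values as deposited and 2 with median scaling. With the mean of probe sets 1 was lost, as was 1 with only the 4 arrays compared. None was lost with the offset, the stricter filter or all probe sets. Over all tested genes the count in SeW against TW was 177, 42 with median scaling, 12 with no filter, 4395 as deposited and from 2 to 521 with single arrays left out. With 2 arrays a group, the SE of a member difference was 0.34 to 0.46 on the log2 scale.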
